A study of Mus musculus with 6 samples.

Results

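Interferon gamma, its receptor and the genes it switches on directly were followed in cells taken from mouse melanomas at an early and a later time. The 8 genes were picked by name and cover the pathway from ligand to response. They are the ligand Ifng, the receptor chains Ifngr1 and Ifngr2, the receptor kinase Jak2, and the response genes Irf1, Socs1, Ciita and Nlrc5. All 8 were found among the 26754 genes of the deposited tables. Female C57BL/6J mice, aged 6 to 8 weeks, carried subcutaneous tumours of B16, a melanoma line of the same strain. Cells were pulled from the tumours with magnetic beads that bind CD8a, the alpha chain of the co-receptor of cytotoxic T cells. The groups are day 14 and day 7 after implantation, with 3 libraries of each. The labels name no drug or engineered allele in any sample, and they do not say whether a library is 1 mouse or a pool.

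Interferon gamma is the cytokine by which activated CD8 T cells and natural killer cells alert the tissue around them. It binds a receptor of Ifngr1, the ligand-binding chain, and Ifngr2, the chain that brings in the kinase Jak2 and is kept at low levels in many T cells. Jak1 and Jak2 then start the signal, which reaches Irf1 and other genes through short DNA palindromes called gamma-activated sites (GAS). Irf1 is a transcription factor that carries the response on through interferon-stimulated response elements (ISRE). Socs1 binds the Jak kinases and shuts the signal off, while Ciita and Nlrc5 are the co-activators of MHC class II and class I genes.

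The promoters of 4 genes are shown because 1 of them carries a GAS match close to the start of a response gene, another belongs to the ligand, and the other 2 belong to the receptor chains, whose transcripts lay on opposite sides of their day 7 levels. Each sequence runs 5′ to 3′ on the strand of the gene, from 250 bases before to 50 bases after the RefSeq start (GRCm38.p6). Capitals mark matches to the GAS letters TTCNNNGAA.
Ifng, chr10:118440796-118441095, plus strand: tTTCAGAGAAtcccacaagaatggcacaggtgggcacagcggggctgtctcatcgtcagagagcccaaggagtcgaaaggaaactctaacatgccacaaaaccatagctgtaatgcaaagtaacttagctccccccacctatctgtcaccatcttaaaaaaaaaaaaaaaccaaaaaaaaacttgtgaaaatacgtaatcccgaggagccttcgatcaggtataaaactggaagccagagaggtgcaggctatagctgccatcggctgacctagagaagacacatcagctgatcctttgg
Irf1, first of 2 starts, chr11:53769764-53770063, plus strand: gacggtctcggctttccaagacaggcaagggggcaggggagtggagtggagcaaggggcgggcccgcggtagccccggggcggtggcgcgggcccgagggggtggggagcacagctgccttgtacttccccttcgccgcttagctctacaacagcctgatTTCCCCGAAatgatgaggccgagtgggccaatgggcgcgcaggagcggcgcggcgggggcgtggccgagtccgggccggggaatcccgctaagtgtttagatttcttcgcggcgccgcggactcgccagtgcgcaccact
Ifngr1, chr10:19591699-19591998, plus strand: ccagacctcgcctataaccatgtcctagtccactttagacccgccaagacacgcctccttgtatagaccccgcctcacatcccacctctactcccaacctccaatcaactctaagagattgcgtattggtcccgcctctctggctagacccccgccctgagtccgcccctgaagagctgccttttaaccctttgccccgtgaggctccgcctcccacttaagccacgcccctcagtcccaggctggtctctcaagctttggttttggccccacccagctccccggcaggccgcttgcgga
Ifngr2, chr16:91546809-91547108, plus strand: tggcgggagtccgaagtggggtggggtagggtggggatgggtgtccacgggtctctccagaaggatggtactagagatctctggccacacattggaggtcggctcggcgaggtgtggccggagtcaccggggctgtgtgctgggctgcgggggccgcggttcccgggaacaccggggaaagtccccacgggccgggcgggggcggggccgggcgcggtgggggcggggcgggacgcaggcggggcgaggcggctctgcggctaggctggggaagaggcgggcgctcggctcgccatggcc
In Irf1 the match TTCCCCGAA lies at bases -90 to -82 from the start. In Ifng the match TTCAGAGAA lies at -249 to -241, at the far end of the window. The GAS letters occur in 8.30% of 32851 promoter windows of this length. The ISRE letters, GAAA and a second GAAA with any 2 bases between them, searched on both strands, occur in 3.44% of the windows, and among the 8 genes only Socs1 had them in its window, as the overlapping matches GAAAGAGAAA at -83 to -74 and GAAACCGAAA at -77 to -68. Windows were found for 6 of the 8 genes, 7 windows in all, and 4 of these held neither motif. These are letter matches in a short window and say nothing on binding.

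The libraries held 11385106 to 13316522 reads in genes on day 14 and 6523019 to 9313078 on day 7. With 2 reads taken as 1 fragment, day 7 replicates 1 and 2 differed by close to sampling noise (median chi-square over genes 1.11 times that of sampling alone). For replicate 3 against them it was 40.9 and 44.4 times, and between day 14 libraries 4.05 to 4.43 times. The mean of day 7 replicates 1 and 2 therefore entered as a single sample, so that n = 3 on day 14 and n = 2 on day 7. Both CD8 genes, Cd8a and Cd8b1, were present, with sums of 38.2 to 47.3 RPKM on day 14 and 164 to 165 on day 7, and so were markers of other cells. Summed RPKM (reads per kilobase of gene and 1000000 reads) of 12 T cell genes (Cd3d, Cd3e, Cd3g, Cd247, Trac, Trbc1, Trbc2, Cd2, Cd5, Cd6, Lat and Lck) ran from 112 to 131 on day 14 and from 424 to 506 on day 7. Sums for 7 natural killer genes were 20.1 to 22.8 on day 14 and 101 to 163 on day 7. Those of 10 macrophage genes were 655 to 673 on day 14 and 317 to 423 on day 7. Of these sums Lyz2 made up 376 to 392 on day 14 and 186 to 232 on day 7. Those of 7 melanoma genes were 10410 to 11430 on day 14 and 5672 to 5896 on day 7. Of the melanoma sums Dct made up 8577 to 9681 on day 14 and 4431 to 4726 on day 7. Of the 7 melanoma genes, 5 were higher in every day 14 library, while Pmel and Mitf overlapped. Among all tested genes the libraries of the days did not overlap, in either direction, for 49.3%. All 12 T cell genes, the 7 natural killer genes and the 7 melanoma genes had reads in every library, as did 10 of 10 macrophage genes on day 14 and 9 of 10 on day 7. In such mixed samples fewer cells of a type and less RNA per cell cannot be told apart.

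Ifng, its receptor chain Ifngr1 and the response factor Irf1 were lower as a share of all reads on day 14 and passed the test, Jak2 lay at a similar level on both days, and the second receptor chain, Ifngr2, had higher values on day 14 without passing the test. Of the 8 genes, 7 reached the mean of 20 CPM (reads per 1000000 reads in genes) needed to be tested. Of these, 3 fell and none rose at a Benjamini-Hochberg adjusted p under 0.05 by limma on log2(RPKM + 1). Among all 6691 genes tested, 4.89% were called in this fit, 3.18% as lower and 1.70% as higher on day 14. In the same fit 5 of the 7 had an unadjusted p under 0.05, as had 1302 of the 6691 genes. By limma-voom on recovered reads 4 of the 7 were lower and 1, Ifngr2, was higher. That method called 2175 of the 6691 genes, 1476 higher and 699 lower. Ifng and Ifngr2 reached the minimum only through the day on which they were high, so the count of 3 is given as a description. The 3 libraries of each day did not overlap for 6 of the 7 tested genes, 5 lower and 1 higher on day 14, which also held for 49.3% of all tested genes. The median log2 fold change of the 7 was -0.79, against 0.16 over all genes tested.

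**Figure D1:**
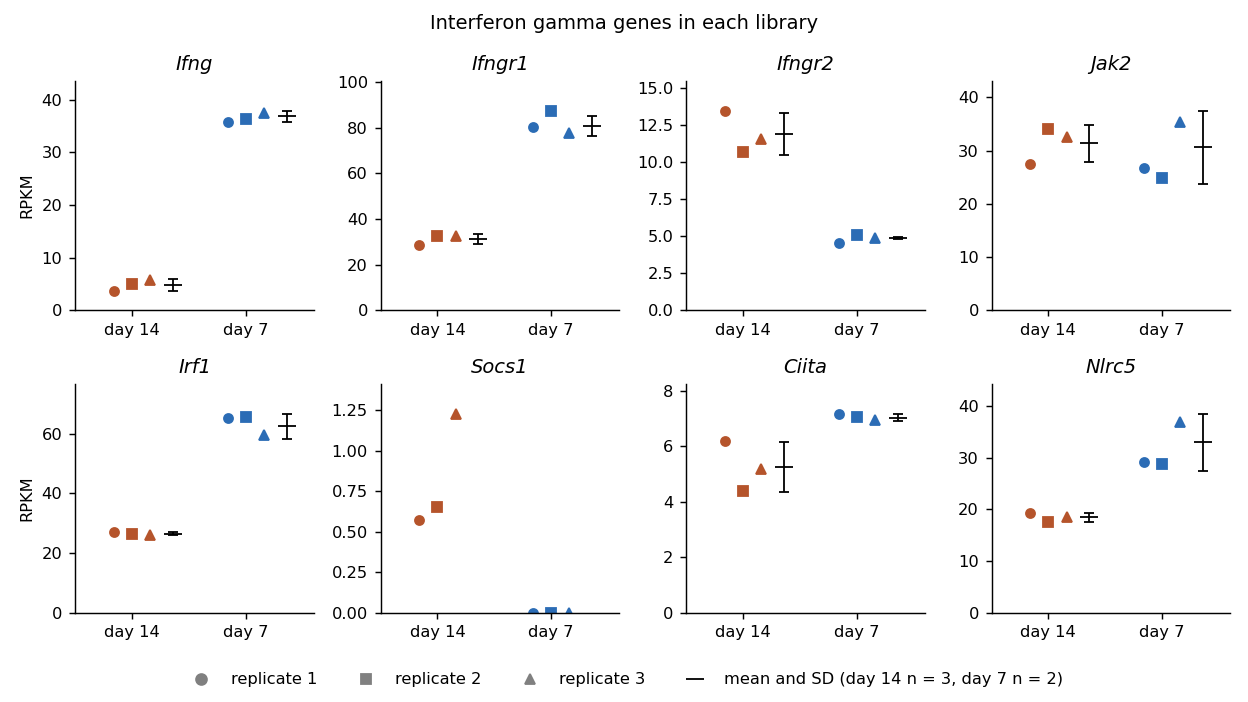
RPKM of the 8 genes in each library (symbols, by replicate), day 14 left of day 7, with the mean and SD of the samples counted (n = 3 and n = 2; not drawn for Socs1, which is at 0 on day 7). The day 14 and day 7 points are apart for every gene except Jak2, and Ifngr2 and Socs1 are the genes whose day 14 points lie above.

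The ligand showed the lowest fold change of the 7. Ifng (chromosome 10, 118441047 to 118445892, plus strand, GRCm38) had 3.57, 4.95 and 5.79 RPKM in day 14 replicates 1 to 3, against 35.9, 36.4 and 37.6 RPKM in day 7 replicates 1 to 3. The highest day 14 library stood far under the lowest day 7 library. The means were 4.77 ± 1.1 RPKM on day 14 (SD, n = 3) and 36.9 ± 1.0 RPKM on day 7 (SD, n = 2), which is 7.73-fold lower on day 14. The log2 fold change was -2.73 (SE 0.34) and had a 95% interval of -3.48 to -1.99 (limma adjusted p = 0.00101). With the minimum lowered to a mean of 5 CPM, which Ifng passes on either day, the adjusted p was 0.00138 over 10913 genes, of which 4.87% were called. Behind these values are 49 to 93 reads in the day 14 libraries and 296 to 409 in those of day 7. Replicates 1 and 2 of day 7 count as 1 sample, and replicate 3, a separate sample, gave nearly the same level.

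The T cell and natural killer genes of these samples moved in the same direction as Ifng, so Ifng was also set against them within each library. Per 100 RPKM of the 12 T cell genes, Ifng stood at 3.08, 4.40 and 4.41 on day 14, against 7.09, 7.43 and 8.86 on day 7. The days did not overlap in this ratio either, and its day 14 mean was 0.491 times that of day 7. The exact two-sided permutation p was 0.1, the smallest that 10 splits of 5 samples allow, and 0.157 adjusted over 11 ratios. Per 100 RPKM of the 7 natural killer genes the values overlapped, at 17.8, 24.0 and 25.3 on day 14 against 35.4, 34.8 and 23.1 on day 7 (exact two-sided permutation p = 0.5, 0.55 adjusted). Scaled to the T cell genes in the fit over all genes, the log2 fold change of Ifng was -0.95, with a 95% interval of -1.66 to -0.24 and a limma adjusted p of 0.0102, while the median of all genes moved to 1.89.

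The 5 genes whose pattern over the 6 libraries was closest to that of Ifng were Gem, Gzmb, Jak3, F2r and Gbp11. Predicted gene models, T cell receptor segments and immunoglobulin genes were left out of this ranking. The measure is the root mean square difference of log2(RPKM + 1), each gene centred on its own mean, and it ran from 0.17 for Gem to 0.27 for Gbp11 among 6313 genes compared. Gem, a small GTP-binding protein, had 9.31, 12.2 and 10.7 RPKM on day 14 against 75.0, 72.7 and 63.6 on day 7. Gzmb, the granule protease of killer cells, had 82.4, 73.7 and 86.0 RPKM on day 14 against 629, 601 and 684 on day 7. Jak3, the kinase of the common gamma chain of cytokine receptors, averaged 3.14 ± 0.57 RPKM on day 14 and 18.8 ± 1.6 on day 7. F2r, a thrombin receptor, averaged 2.70 ± 0.71 RPKM on day 14 and 18.8 ± 3.0 on day 7, and Gbp11, a guanylate-binding protein, 2.00 ± 0.37 on day 14 and 18.5 ± 5.2 on day 7.

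The values of the receptor chains lay in opposite directions, and of these differences the fall of Ifngr1 passed the test. Ifngr1 (chromosome 10, 19591949 to 19610229, plus strand) had 28.8, 32.7 and 32.4 RPKM on day 14, against 80.5, 87.4 and 77.6 RPKM on day 7. It was the most abundant of the 8 genes per length on day 7, and each day 14 library was under every day 7 library. Its means were 31.3 ± 2.2 RPKM on day 14 (SD, n = 3) and 80.8 ± 4.5 RPKM on day 7 (SD, n = 2), for a log2 fold change of -1.34 ± 0.20 (SE, limma adjusted p = 0.00338). Ifngr2 (chromosome 16, 91547072 to 91565169, plus strand) had 13.5, 10.7 and 11.6 RPKM on day 14, against 4.54, 5.06 and 4.90 RPKM on day 7. Here each day 14 library was above every day 7 library, with means of 11.9 ± 1.4 RPKM on day 14 (SD, n = 3) and 4.85 ± 0.074 on day 7 (SD, n = 2). The log2 fold change of 1.14 had an SE of 0.48 and a 95% interval of 0.075 to 2.20, and it did not pass the test (limma adjusted p = 0.225). The day 7 level rests on 106 to 156 reads, and reads are not independent molecules. Without precision weights the limma adjusted p was 0.0196. Summed macrophage, melanoma and neutrophil genes were also higher on day 14, though not each gene of these sets. The part of these cells in the Ifngr2 values was not tested.

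The balance of the chains within a library is free of any scaling between libraries. Ifngr2 over Ifngr1 was 0.468, 0.328 and 0.357 on day 14, against 0.0564, 0.0578 and 0.0632 on day 7. The lowest day 14 ratio was thus well above the highest day 7 ratio, and the mean day 14 ratio was 6.39 times that of day 7. Both chains already lay apart between the days, in opposite directions. The direction of the ratio and its lack of overlap follow from those values and are no second result. The exact two-sided permutation p was 0.1, the smallest the design allows, and 0.157 adjusted over the 11 ratios. Without any 1 of the 6 libraries the mean day 14 ratio stayed 5.70 to 6.86 times that of day 7. As a share of all reads, 3.18% of all genes tested were called lower and 1.7% higher on day 14. Among 5 tested genes of other receptors of this class and their kinase, 2 fell and none rose on that scale. These were Il10ra, the ligand-binding chain for interleukin 10, at 27.0 ± 2.7 RPKM on day 14 and 69.7 ± 12 on day 7 (limma adjusted p = 0.00775), and the kinase Tyk2, at 4.89 ± 0.27 on day 14 and 14.8 ± 1.3 on day 7 (limma adjusted p = 0.0312). The median log2 fold change of the 5 was -0.058, and 1.64 relative to T cell transcripts, where the median of all genes was 1.89. Neither Il10ra nor Tyk2 was called when day 7 replicate 3 was left out, nor was Tyk2 without day 14 replicate 2 (limma adjusted p = 0.0537) or 3 (0.0561).

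**Figure D2:**
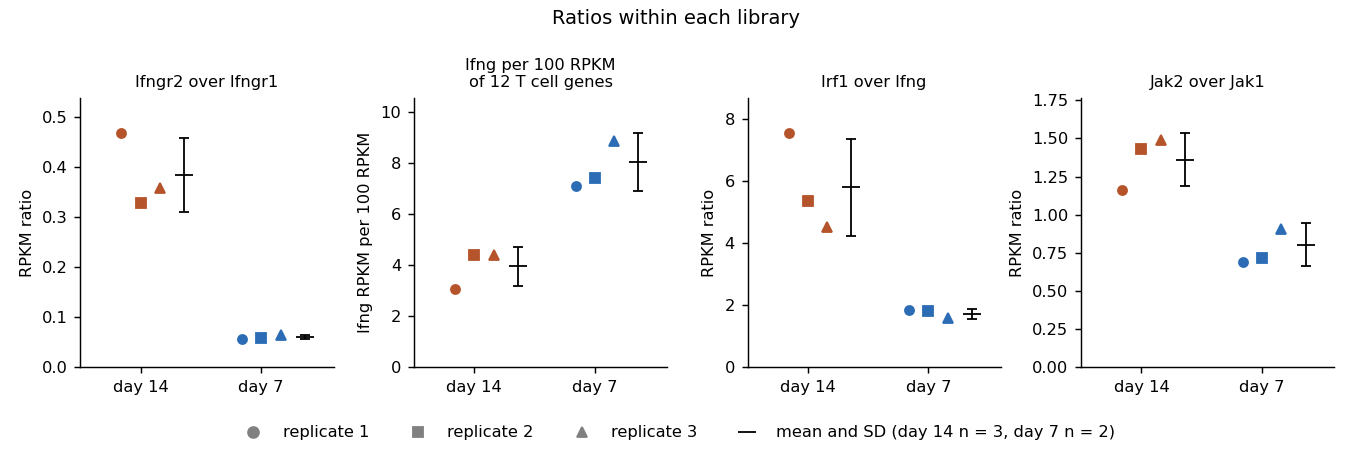
Ratios of RPKM within each library (symbols, by replicate), day 14 left of day 7, with the mean and SD (n = 3 and n = 2). The day 14 points of Ifngr2 over Ifngr1 lie between 0.328 and 0.468 and those of day 7 between 0.0564 and 0.0632, while Ifng per 100 RPKM of T cell genes is lower on day 14. Irf1 over Ifng and Jak2 over Jak1 are higher in every day 14 library.

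Jak2 (chromosome 19, 29251828 to 29313080, plus strand) had 27.4, 34.1 and 32.5 RPKM on day 14, against 26.8, 24.8 and 35.4 RPKM on day 7. The days overlapped, and the log2 fold change of 0.044 had a 95% interval of -0.62 to 0.71 (limma adjusted p = 0.954). Its sign turned to -0.14 with median-of-ratios scaling. Jak1, the partner kinase on Ifngr1, picked out after its values were seen, had 23.6, 23.8 and 21.8 RPKM on day 14 against 38.8, 34.8 and 39.2 on day 7, and did not pass the test (log2 fold change -0.69, limma adjusted p = 0.139). Within a library Jak2 was at 1.16, 1.43 and 1.49 times the RPKM of Jak1 on day 14, against 0.691, 0.714 and 0.905 times on day 7. The ratios of the days did not overlap (exact two-sided permutation p = 0.1, the smallest possible, 0.157 adjusted). Among 10 tested genes of the receptor's signalling and its brakes, 2 fell and none rose, against 3.18% lower and 1.7% higher among all tested. The median log2 fold change of the 10 was -0.26 as a share of all reads and 1.57 relative to T cell transcripts. Ptpn6, 1 of the 2 and the phosphatase SHP-1 of blood cells, was at 86.8 ± 2.3 RPKM on day 14 and 179 ± 26 on day 7 (limma adjusted p = 0.00349). Without day 7 replicate 3 the count was 1.

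Irf1 (chromosome 11, 53770014 to 53778374, plus strand), the gene with a GAS match close to its start, had 26.9, 26.5 and 26.1 RPKM on day 14. On day 7 it had 65.4, 65.6 and 59.4 RPKM. The 3 day 14 libraries lay within 1 RPKM of each other and far under those of day 7. Means were 26.5 ± 0.41 RPKM on day 14 (SD, n = 3) and 62.5 ± 4.3 RPKM on day 7 (SD, n = 2), for a log2 fold change of -1.20 ± 0.20 (SE, limma adjusted p = 0.00616). Without day 7 replicate 3 the change was -1.27, with an adjusted p of 0.0576. Irf1 over Ifngr1 was 0.936, 0.810 and 0.805 on day 14, against 0.812, 0.750 and 0.765 on day 7, and the days overlapped (exact two-sided permutation p = 0.3, 0.367 adjusted). Irf1 over Ifng was 7.55, 5.35 and 4.51 on day 14, against 1.82, 1.80 and 1.58 on day 7, with no overlap (exact two-sided permutation p = 0.1, the smallest possible, 0.157 adjusted). An antisense gene model, Gm17334, shares 135 bases with Irf1 exons with 211 to 233 reads in day 14 libraries and 286 to 331 in day 7 libraries. The strand setting of the counting is not given, so how reads in the shared bases were assigned is not known. Irf1 itself had 1219 to 1383 reads in day 14 and 1541 to 2428 in day 7 libraries.

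Socs1 (chromosome 16, 10783808 to 10785536, minus strand), the inhibitor of the Jak kinases, was the member under the test's minimum. It had 0.576, 0.653 and 1.23 RPKM on day 14, from 8, 10 and 20 reads, and is listed at 0 in the 3 day 7 libraries. A listing at 0 on day 7 does not bound the level, because of 8528 genes with at least 10 CPM in day 7 replicate 1, 290 had no read in replicate 3. No fold change is therefore given. Socs3, the related inhibitor, was at 23.5 ± 1.6 RPKM on day 14 and 20.6 ± 6.5 on day 7, a difference that did not pass the test (limma adjusted p = 0.763). It was picked out after its values were seen.

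The MHC co-activators were lower on day 14 in every library and did not pass the test. Nlrc5 (chromosome 8, 94434356 to 94527272, plus strand), the class I co-activator, had 19.2, 17.6 and 18.6 RPKM on day 14, against 29.2, 28.7 and 36.9 RPKM on day 7. Its log2 fold change was -0.79, its SE 0.25 and its 95% interval -1.35 to -0.23 (limma adjusted p = 0.113). It passed with unweighted libraries (adjusted p = 0.0301) and not with median-of-ratios scaling (adjusted p = 0.0523). Ciita (chromosome 16, 10488178 to 10527564, plus strand), the class II co-activator, had 6.19, 4.41 and 5.20 RPKM on day 14, against 7.19, 7.05 and 6.94 RPKM on day 7. The gap between the days was small, and the log2 fold change of -0.37 had a 95% interval of -1.34 to 0.60 (limma adjusted p = 0.693). Nlrc5 over Irf1, the factor that can drive it, was 0.714, 0.664 and 0.711 on day 14, against 0.446, 0.438 and 0.620 on day 7, and so higher in each day 14 library. Nlrc5 over Ciita was 3.11, 3.99 and 3.57 on day 14, against 4.06, 4.07 and 5.31 on day 7, and so lower in each day 14 library (exact two-sided permutation p = 0.1 for both ratios, the smallest possible, 0.157 adjusted). Genes annotated on the opposite strand also touch Nlrc5 and Ciita. Dexi, which had 85 to 132 reads in day 14 and 12 to 35 in day 7 libraries, shares 111 exon bases with Ciita, while Ciita had 291 to 370 reads in day 14 and 238 to 345 in day 7 libraries. The model 9330175E14Rik, which had 43 to 70 reads in day 14 and 11 to 141 in day 7 libraries, shares 78 exon bases with Nlrc5.

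Genes that Nlrc5 and Ciita are known to drive were counted in the same fit. Of all genes tested in it, 3.18% were called lower and 1.7% higher on day 14. Of 13 tested class I genes, 10 fell and none rose, with a median log2 fold change of -1.18 as a share of all reads and 0.68 relative to T cell transcripts. H2-D1 and H2-K1, the classical heavy chains, both fell. H2-D1 was at 328 ± 15 RPKM on day 14 and 628 ± 67 on day 7, and H2-K1 at 344 ± 20 on day 14 and 583 ± 50 on day 7. The non-classical gene H2-Q6 was at 55.7 ± 4.9 RPKM on day 14 and 167 ± 3.3 on day 7, and the peptide transporter Tap2 at 19.5 ± 0.84 on day 14 and 62.3 ± 22 on day 7. The H2 genes are close copies of each other, so reads may be split among them. Of 5 tested class II genes, 3 fell and none rose, with a median of -0.62 as a share of all reads and 1.31 relative to T cell transcripts. H2-Eb1 was at 247 ± 4.2 RPKM on day 14 and 491 ± 50 on day 7, and H2-Ab1 at 555 ± 19 on day 14 and 859 ± 112 on day 7. The invariant chain Cd74 was at 378 ± 6.0 RPKM on day 14 and 577 ± 92 on day 7. Summed RPKM of 7 dendritic cell genes was 16.6 to 20.9 on day 14 and 13.9 to 38.1 on day 7. Of these genes 2 were higher in every day 14 library and 5 overlapped. The sum of 4 B cell genes was 1.39 to 1.76 on day 14 and 2.69 to 5.66 on day 7. Of these, 1 was lower in every day 14 library and 3 overlapped. The sum of 10 macrophage genes was 655 to 673 on day 14 and 317 to 423 on day 7. Of these, 7 were higher in every day 14 library, 1 was lower and 2 overlapped. Among all tested genes 49.3% did not overlap between the days, in either direction. The part of dendritic cells, B cells and macrophages in the class II values was not tested. Without day 7 replicate 3 the class I count was 3 and the class II count 3.

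Summed class I RPKM over Nlrc5 was 65.8, 67.7 and 66.2 on day 14, against 77.8, 76.6 and 63.6 on day 7 (exact two-sided permutation p = 0.7, 0.7 adjusted). Summed class II RPKM over Ciita was 204, 281 and 242 on day 14, against 282, 277 and 299 on day 7 (exact two-sided permutation p = 0.3, 0.367 adjusted). The days overlapped in both ratios. Of 7 tested partners with which these co-activators assemble at MHC promoters, none was called in either direction by limma (median -0.031, none at an unadjusted p under 0.05). By limma-voom on recovered reads 2 were higher and 1 lower, against 1476 higher and 699 lower of all 6691 genes tested. Relative to T cell transcripts the median of the 7 partners was 1.72. Rfxap, a subunit of the RFX complex, was at 25.6 ± 4.7 RPKM on day 14 and 35.1 ± 5.0 on day 7 (limma adjusted p = 0.518), and Nfyb, a subunit of NF-Y, at 15.7 ± 1.7 on day 14 and 15.9 ± 6.3 on day 7 (limma adjusted p = 0.971).

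Further down the response, 14 of 27 tested interferon gamma target genes fell and 1 rose, against 3.18% lower and 1.7% higher among all tested. The median log2 fold change of the 27 was -1.10 as a share of all reads and 0.72 relative to T cell transcripts. The GTPases of the IRG and GBP families, which attack membranes around intracellular microbes, made up the 4 with the smallest p. Igtp was at 54.7 ± 2.7 RPKM on day 14 and 155 ± 4.5 on day 7, and Gbp8 at 31.0 ± 2.2 on day 14 and 98.0 ± 7.9 on day 7. Gbp2 was at 67.6 ± 4.1 RPKM on day 14 and 170 ± 2.8 on day 7, and Iigp1 at 38.4 ± 1.1 on day 14 and 101 ± 6.0 on day 7. Members of these families are close copies, so reads may be split among them. Nos2, the inducible nitric oxide synthase, was the target that rose, with 11.7, 13.5 and 12.6 RPKM on day 14 against 1.11, 1.78 and 2.08 on day 7 (log2 fold change 2.30, limma adjusted p = 0.0251). It is named, after its values were seen, because no other target was called higher. Nos2 reached the minimum only through day 14 (55.5 CPM on day 14, 7.78 CPM on day 7). Its call was lost with a pseudocount of 0.1 RPKM (limma adjusted p = 0.121), at a minimum of 5 CPM (0.0688) and without day 7 replicate 3 (0.139), and in the last of these settings 6 targets fell and none rose. A set of 4 neutrophil genes summed to 49.4 to 63.7 RPKM on day 14 and 12.7 to 17.4 on day 7, and 3 of them were higher in every day 14 library. Of the 10 macrophage genes, 7 were higher in every day 14 library, Fcgr1 was lower in every one, and Adgre1 and C1qc overlapped. Among all tested genes 49.3% did not overlap between the days, in either direction. The part of neutrophils and macrophages in the Nos2 values was not tested. Tap1 and Psmb9 belong to this list and to the class I list.

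Upstream of the ligand, 4 of 10 tested inducers of Ifng in lymphocytes fell and none rose, against 3.18% lower and 1.7% higher among all tested. The median log2 fold change of the 10 was -1.24 as a share of all reads and 0.43 relative to T cell transcripts. Il18r1, a chain of the interleukin 18 receptor, was at 6.75 ± 0.65 RPKM on day 14 and 35.0 ± 4.4 on day 7 (log2 fold change -2.21, limma adjusted p = 0.001). Il12rb2, a chain of the interleukin 12 receptor, was at 5.05 ± 0.19 RPKM on day 14 and 16.3 ± 2.5 on day 7. Stat4, which that receptor activates, was at 6.80 ± 0.94 on day 14 and 19.6 ± 5.5 on day 7, and the T-box factor Eomes, also counted among the natural killer genes, at 2.27 ± 0.16 on day 14 and 8.85 ± 0.21 on day 7. Il12rb2 (19.2 CPM on day 14, 61.9 CPM on day 7) and Eomes (9.45 CPM on day 14, 36.8 CPM on day 7) reached the minimum only through day 7, and the other 8 list genes did not reach it. At a minimum of 5 CPM, 2 of 13 tested inducers were called, and the calls of Eomes (limma adjusted p = 0.0562) and Stat4 (0.0548) were lost. Of the 4, only Il18r1 was called without day 7 replicate 3, and Stat4 was not called without day 14 replicate 2 (0.0783) or 3 (0.0766). All 7 natural killer genes and 11 of the 12 T cell genes were also lower in every day 14 library. Among all tested genes 49.3% did not overlap between the days, in either direction. The part of natural killer and T cells in these falls was not tested. Over the 7 lists 75 of 98 genes were tested and 34, or 45.3%, were called, against 4.89% of all genes tested. Of the 34, 33 were lower and 1 higher as a share of all reads, and 3 reached the minimum through 1 day only. Relative to T cell transcripts 52 of the 75, or 69.3%, were called, all higher, against 95% of all genes tested (94.8% higher). That scale moves all genes nearly alike, so the lower share of the lists follows from the first count and is no second result. On the first scale and without day 7 replicate 3 the number called was 14, all lower.

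**Figure D3:**
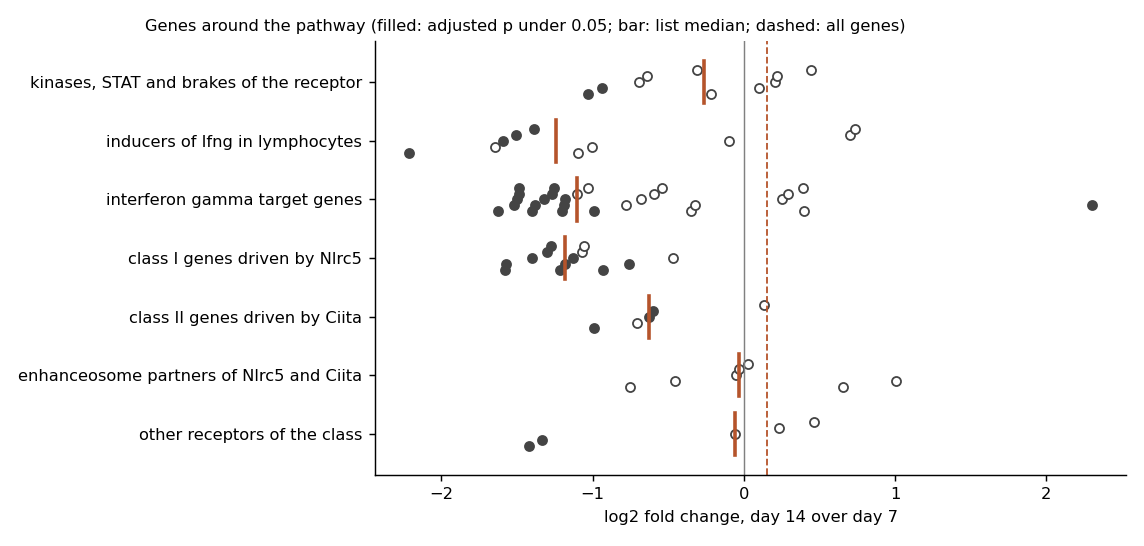
Log2 fold change as a share of all reads, day 14 over day 7, of each tested gene of the 7 lists around the pathway (points; filled where the adjusted p is under 0.05), with the list median (bar) and the median of all tested genes (dashed, 0.16). Filled points lie left of 0 except Nos2 at 2.30. Relative to T cell transcripts the list medians lie between 0.43 and 1.72 and that of all genes at 1.89. The change of scale moves all genes nearly alike, so the place of a list against all genes is no second result.

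A second scale set each library to its T cell transcripts, and it moved nearly all genes upwards, with 94.8% of them called higher on day 14 and a median of 1.89 against 0.16 as a share of all reads. Signs on this scale follow that shift, and values are read against its median. With the sum of the 12 T cell genes as the scale, the log2 fold change was -0.95 for Ifng and 0.56 for Ifngr1 (95% interval 0.0035 to 1.11, limma adjusted p = 0.0511). It was 0.69 for Irf1, 1.06 for Nlrc5, 1.27 for Ciita, 1.91 for Jak2 and 2.75 for Ifngr2. As 1 factor per library moves all genes nearly alike, a gene's place against the median is nearly the same on both scales. Agreement between the scales is therefore no second result. Ifng, Ifngr1, Irf1, Nlrc5 and Ciita lay under the median of all genes and Ifngr2 above it, while Jak2 lay close to it. This scale treats all transcripts as if they came from T cells, although macrophage and melanoma genes also held reads in every sample, and the share of each cell type in the values of receptor and response genes was not tested.

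**Figure D4:**
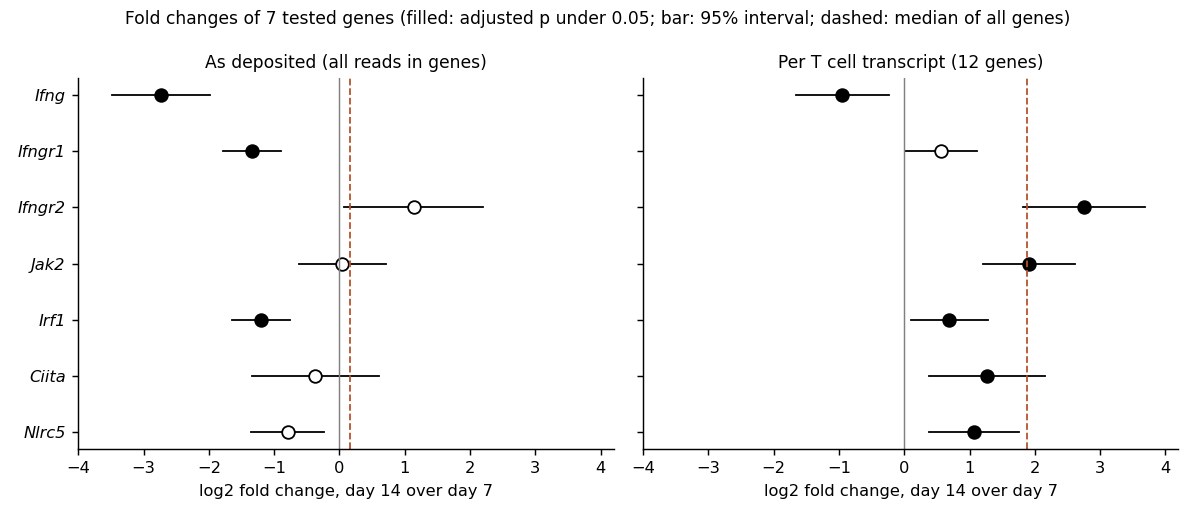
Log2 fold change, day 14 over day 7, with its 95% interval for the 7 tested genes, scaled to all reads (left) and to 12 T cell genes (right). Filled points have an adjusted p under 0.05, and the dashed line is the median of all tested genes (0.16 and 1.89). Ifng is left of 0 in both panels, Ifngr1, Irf1, Nlrc5 and Ciita are left of 0 in the left panel and right of 0 in the right panel, and Ifngr2 is farthest right in both.

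The order of the levels per length also differed between the days. On day 14 Jak2 and Ifngr1 came first at 31.3 RPKM each and their libraries overlapped. Irf1 (26.5), Nlrc5 (18.5) and Ifngr2 (11.9) followed without overlap between neighbours, then Ciita (5.27) and Ifng (4.77), which overlapped, and Socs1 last. On day 7 Ifngr1 (80.8) and Irf1 (62.5) stood apart at the top. Ifng (36.9), Nlrc5 (32.9) and Jak2 (30.6) came next with overlapping libraries, and Ciita (7.03) and Ifngr2 (4.85) last among the genes with reads. Ifng thus held rank 7 on day 14, against rank 3 on day 7, and Ifngr2 rank 5 on day 14, against rank 7 on day 7.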

How the data were processed

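Samples were cells selected with CD8a beads from B16 tumours, 3 poly-A libraries for each day. According to the submitters' processing notes, reads were trimmed with Trimmomatic 0.36 and counted with featureCounts of Subread 1.5.1 on GRCm38. No source used here gives the aligner, how molecular identifiers were used, or whether counting followed the strand. The authors deposited RPKM, with gene lengths per the file headers. Reads recovered from RPKM steps and gene lengths were whole within 0.001 for 100% of genes, and gave the totals. Reads are not independent molecules, so read numbers state depth only.

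Genes averaging at least 20 CPM (reads per 1000000) over 5 samples were fitted with limma 3.58.1 in R 4.3.3 on log2(RPKM + 1). Precision weights per day were taken from the variance smoothed over the mean by loess (span 0.3, floor 0.005), and moderated tests used a trend. Fold changes are on this scale, which understates those of low genes. The code was tested on simulated data. Planned count models were not run, since the values are RPKM. The other alternatives changed the pseudocount, filter, weights, scaling, sample counting, replicate block and tool (limma-voom), or left out each library.

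The members, lists and tests were chosen with earlier results of these data known. Named genes are the 8 members, up to 4 called genes of each list by smallest adjusted p (the 2 most abundant where fewer than 2 were called) and 5 with a pattern like Ifng. Jak1, Socs3, Nos2 and the genes of the closing observations fall outside this rule and were chosen after their values were seen. Single cell type markers named apart from their sums were also picked out after their values were seen. Of the lists, 1 gene is not reported here by name. The labels do not tie replicates to separate mice, and p-values cover the spread between these samples.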

Additional observations from a re-analysis of the deposited data

How the results depend on the processing

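The number of genes called over the whole table was 327 (114 higher, 213 lower) and depended on the processing. It was 1465 with no filter (1181 higher, 284 lower), 531 at 5 CPM (291 higher, 240 lower), 1011 without weights (601 higher, 410 lower), 6357 per T cell transcript (6342 higher, 15 lower), 1594 with the 6 libraries counted singly, 2175 by limma-voom on recovered reads (chosen after seeing the data), and 130 to 334 when a library was left out, lowest without day 7 replicate 3. Median-of-ratios scaling called 357 (57 higher, 300 lower), with the median of all genes at -0.015 against 0.16. Of the 7 tested genes of the pathway, 3 were called, against 5 without weights, 5 counted singly, 5 by limma-voom, 6 per T cell transcript (5 higher, 1 lower) and 2 to 3 when a library was left out. The lists gave 34 calls, against 52 per T cell transcript, 53 by limma-voom and 14 to 34 when a library was left out. Per T cell transcript, with the median of all genes at 1.89, the log2 fold change turned to 0.56 for Ifngr1, 0.69 for Irf1, 1.27 for Ciita and 1.06 for Nlrc5. That of Jak2 turned to -0.14 with median-of-ratios scaling and lay between -0.019 and 0.27 when a library was left out. Ifng kept its direction and its call under all 15 alternatives, with adjusted p from 0.00018 to 0.025. The causes of these differences were not tested.

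With a library left out, the day 14 ratio of Ifngr2 over Ifngr1 was 5.70 to 6.86 times that of day 7, and the ratio of Ifng over T cell genes 0.464 to 0.546 times. Same-numbered libraries did not deviate together (correlations of -0.019, -0.013 and -0.036). With 6 libraries counted singly, a replicate block gave 1163 calls over all genes (645 higher, 518 lower), 5 among the pathway genes and 46 in the lists, against 1594 (967 higher, 627 lower), 5 and 47 without it. The planned count models edgeR and DESeq2 were not run, because the deposited values are RPKM. Without day 7 replicate 3 the lone day 7 sample is assumed to vary as in the full set. Low day 7 levels are limited by genes with no read in single libraries.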

Other observations

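Of the 27 tested interferon gamma targets, 12 were not called, and 8 of these had lower and 4 higher shares of all reads on day 14. The genes below were chosen after their values were seen. Among the 8, Icam1, an adhesion molecule for LFA-1, was at 11.4 ± 0.87 RPKM on day 14 and 26.2 ± 7.1 on day 7 (SD, log2 fold change -1.10, limma adjusted p = 0.0587), and Irgm1, a GTPase of the IRG family, at 20.1 ± 1.8 RPKM on day 14 and 43.3 ± 15 on day 7 (log2 fold change -1.03, limma adjusted p = 0.0598). Among the 4, Cd274, the checkpoint ligand PD-L1, had 75.7, 76.9 and 77.4 RPKM on day 14, against 61.4, 56.9 and 66.2 RPKM on day 7, and the days did not overlap (log2 fold change 0.29, limma adjusted p = 0.454). Cxcl9, a chemokine that draws T cells, had 15.6, 16.4 and 20.7 RPKM on day 14, against 13.5, 9.58 and 14.7 RPKM on day 7 (limma adjusted p = 0.620). Cxcl10, which binds the same receptor, overlapped between the days, with 23.6, 15.8 and 23.9 RPKM on day 14 against 11.4, 10.6 and 27.0 RPKM on day 7 (limma adjusted p = 0.829).

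Over the lists, 23 genes were under the test's minimum, 14 with a higher and 9 with a lower mean on day 14. Pdcd1lg2, the ligand PD-L2, had 4.86, 3.53 and 3.93 RPKM on day 14, and Il18, the cytokine whose receptor chain Il18r1 fell, had 8.09, 4.94 and 7.79 RPKM on day 14. Both are listed at 0 in the day 7 libraries, which, as for Socs1, does not bound their levels. In the other direction, Il12rb1, a chain of the interleukin 12 receptor, averaged 1.76 ± 0.47 RPKM on day 14 and 6.25 ± 0.56 on day 7. Serping1, an inhibitor of complement, had 0.529 and 0.274 RPKM in day 14 replicates 1 and 2 and is listed at 0 in replicate 3, against 6.15, 6.56 and 1.98 RPKM on day 7.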
